A study of Mus musculus with 9 samples.

Results

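Transcripts of 8 genes of the Notch pathway were followed in blood monocytes: the receptors Notch1, Notch2 and Notch4, the surface proteases Adam10 and Adam17, the nuclear proteins Rbpj and Maml1, and the target gene Hes1. The genes were taken by name, and all 8 were found among the 23234 gene symbols that each library lists. They were chosen with levels and earlier results of these libraries in view, including the contrast by genotype for Notch2, whose values in that contrast are therefore given as a description without a test. Of the 8, 7 reached a mean of 1 FPKM (fragments per kilobase of transcript, scaled to the mapped fragments of the library) over the 9 libraries and entered the tests. Notch4 did not and is given by its levels.

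RNA was sequenced from CD11b+ monocytes sorted from peripheral blood of C57BL/6 mice at 8 months of age. All groups carried Yaa, in which part of the X chromosome with Tlr7 is duplicated onto the Y, so no library comes from a mouse without it. The 4 Gr-1+CD11b+ libraries came from mice labelled Fcgr2-/-.Yaa (null, 2 libraries), CEBPaCre;Fcgr2 fl/fl.Yaa (1) and CD19Cre;Fcgr2 fl/fl.Yaa (1). The 5 Gr-1-CD11b+ libraries came from mice labelled Fcgr2-/-.Yaa, CEBPaCre;Fcgr2 fl/fl.Yaa, CD11cCre;Fcgr2 fl/fl.Yaa, CD19Cre;Fcgr2 fl/fl.Yaa and Fcgr2 fl/fl.Yaa (floxed, without Cre), with 1 library each. Fcgr2, listed as Fcgr2b, codes for an Fc receptor that dampens activation. The Cre lines remove it where their drivers are active: CEBPaCre acts in myeloid cells, CD19Cre in B cells, and CD11c marks dendritic cells and some monocytes. The labels do not say whether libraries came from separate animals or pools, so the p-values cover only how these libraries vary.

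Notch receptors are cleaved at the cell surface by Adam10, or in some settings by Adam17, after a ligand on a neighbouring cell binds them. The gamma-secretase complex then frees the intracellular part, which enters the nucleus, binds Rbpj and recruits Maml1 to switch on genes such as Hes1. In mouse blood, Notch2 is known for steering Ly6C-high classical monocytes, the Gr-1+ kind, toward Ly6C-low nonclassical monocytes, the Gr-1- kind.

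The libraries matched their sorted subset. All 9 classical markers were higher in each Gr-1+ library than in any Gr-1- library, although Ly6c1 and Ly6c2 among them follow from the sort on Gr-1. Likewise 9 of 10 nonclassical markers were higher in each Gr-1- library. Fcgr2b, the targeted gene, ranged from 83.0 to 200.7 FPKM where the label is null or CEBPaCre and from 74.9 to 195 FPKM where it is CD19Cre or floxed, so its level did not follow the labels, and genotypes are named here only as labelled. Read depth is not given, and relative depth, estimated from the steps between the lowest values, ran from 0.702 to 2.66 with the floxed library at 1. The number of genes listed at 0 ran from 5123 to 10140 per library and did not follow that estimate. It was 8827 in the CD19Cre Gr-1- library, estimated at 2.66, and 5246 in the floxed library. Both libraries labelled CD19Cre stood apart: ribosomal protein genes made up 1.99% and 2.28% of all FPKM there and 3.68% to 7.74% in the other 7.

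Between the subsets, Notch1 and Rbpj were higher in Gr-1+ monocytes, and Hes1 was higher in Gr-1- monocytes. The other 4 tested genes, Notch2, Maml1, Adam10 and Adam17, did not pass. The 3 genes called out of 7 tested stand beside 14.8% of all 10436 genes called in this comparison by limma at an adjusted p of 0.05 or less. The same 3 genes were the ones whose subsets did not overlap, a pattern seen in 16.5% of all genes tested (10.2% toward Gr-1+ and 6.26% toward Gr-1-). All differences between subsets are log2 differences of FPKM + 1, Gr-1+ minus Gr-1-, and fold values are on the same FPKM + 1 scale.

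**Figure D1:**
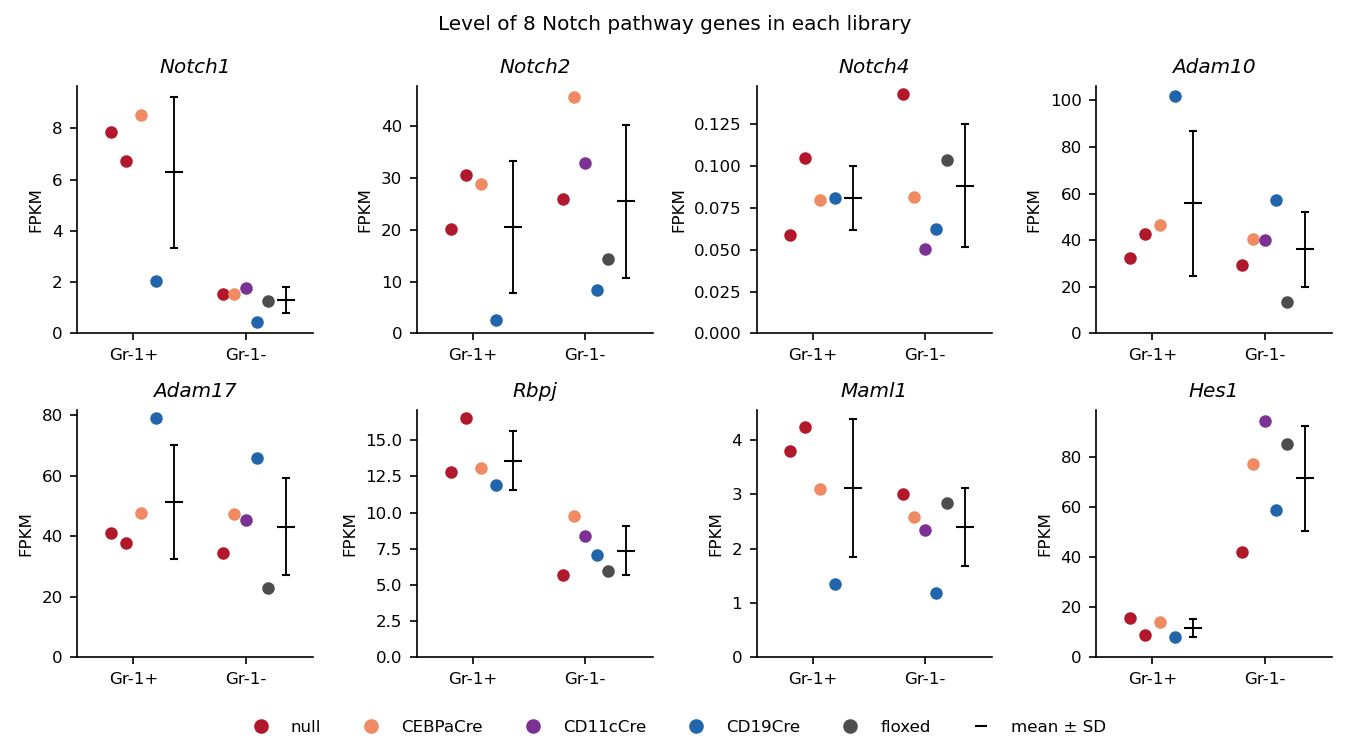
FPKM of the 8 genes in each library, with Gr-1+ libraries left and Gr-1- libraries right in each panel. Points are libraries coloured by labelled genotype, bars are mean ± SD (n = 4 and n = 5), and each panel has its own linear axis from 0. The subsets do not overlap for Notch1, Rbpj and Hes1, and the CD19Cre libraries are lowest of their subset for Notch1, Notch2 and Maml1 and highest for Adam10 and Adam17.

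Notch1, a receptor best known from T cell development, was 2.96-fold higher in Gr-1+ libraries. It stood at 7.84 and 6.71 FPKM in the 2 null, 8.54 FPKM in the CEBPaCre and 2.03 FPKM in the CD19Cre library of Gr-1+. Among Gr-1- libraries it stood at 1.54 FPKM in the null, 1.53 FPKM in the CEBPaCre, 1.76 FPKM in the CD11cCre, 0.433 FPKM in the CD19Cre and 1.28 FPKM in the floxed library. The CD19Cre library was the lowest of each subset, and its Gr-1+ value still lay above every Gr-1- value. Mean FPKM was 6.28 ± 2.93 (SD, n = 4) over the Gr-1+ libraries and 1.31 ± 0.518 (n = 5) over the Gr-1- libraries. The log2 difference was 1.56 ± 0.34 (SE), with a limma adjusted p of 0.00963. Because these are bulk samples, fewer cells of a type and less RNA per cell cannot be told apart, here or for any gene below.

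Notch2 was the most abundant receptor in every library. In Gr-1+ it stood at 20.3 and 30.6 FPKM in the 2 null, 28.8 FPKM in the CEBPaCre and 2.61 FPKM in the CD19Cre library. Among Gr-1- libraries it stood at 26.1 FPKM in the null, 45.6 FPKM in the CEBPaCre, 33.0 FPKM in the CD11cCre, 8.45 FPKM in the CD19Cre and 14.3 FPKM in the floxed library. The subsets overlapped, with the CD19Cre library lowest in each. Mean FPKM was 20.6 ± 12.8 (SD, n = 4) over the Gr-1+ libraries and 25.5 ± 14.8 (n = 5) over the Gr-1- libraries. The log2 difference of -0.48 ± 0.65 did not pass (limma adjusted p = 0.694), and it became 0.25 without the CD19Cre Gr-1+ library.

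The balance between the 2 receptors did not overlap between the subsets. The FPKM of Notch2 divided by that of Notch1 was 2.58 and 4.56 in the null, 3.37 in the CEBPaCre and 1.28 in the CD19Cre library of Gr-1+. It was 17.0 in the null, 29.7 in the CEBPaCre, 18.8 in the CD11cCre, 19.5 in the CD19Cre and 11.1 in the floxed library of Gr-1-. The lowest Gr-1- ratio lay above the highest Gr-1+ ratio, and the CD19Cre Gr-1- library sat among the others of its subset. This ratio was formed after the levels were seen and carries no test.

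**Figure D2:**
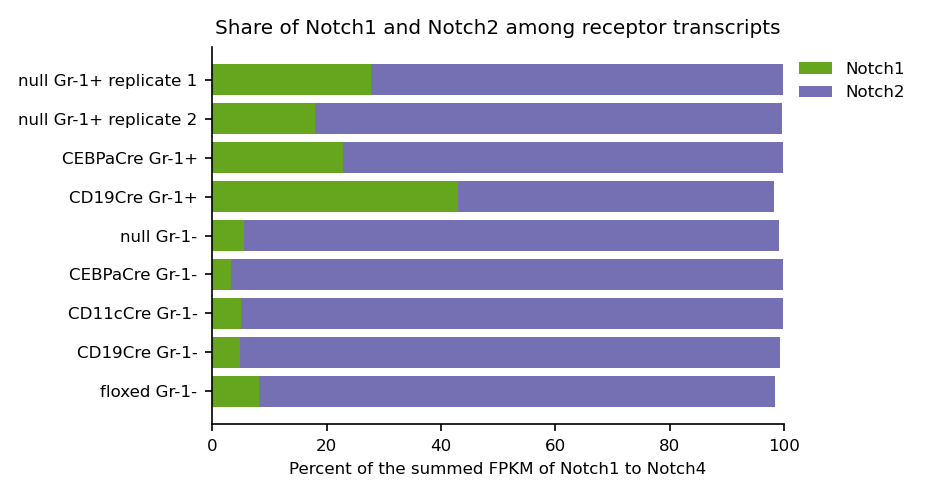
Percent of the summed FPKM of Notch1 to Notch4 held by Notch1 (green) and Notch2 (purple) in each library, Gr-1+ libraries above and Gr-1- libraries below. Notch1 held 17.9% to 43.0% in the 4 Gr-1+ libraries and 3.25% to 8.11% in the 5 Gr-1- libraries, and the small remainder is Notch3 and Notch4.

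The other receptors were close to the floor. Notch4, a receptor known from endothelial cells, spanned 0.0586 to 0.105 FPKM over the Gr-1+ libraries and 0.0504 to 0.143 FPKM over the Gr-1- libraries, with overlap throughout. Notch3 was listed at 0 in all 4 Gr-1+ libraries and reached at most 0.154 FPKM in Gr-1-.

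The proteases that cut the receptor were among the most abundant of the 8 genes. Adam10, the main protease of ligand-bound Notch, stood at 32.5 and 42.7 FPKM in the null, 46.6 FPKM in the CEBPaCre and 102 FPKM in the CD19Cre library of Gr-1+. Among Gr-1- libraries it stood at 29.3 FPKM in the null, 40.3 FPKM in the CEBPaCre, 40.1 FPKM in the CD11cCre, 57.1 FPKM in the CD19Cre and 13.4 FPKM in the floxed library. The subsets overlapped, with the CD19Cre library highest in both and the floxed library lowest of all 9. The log2 difference of 0.62 ± 0.42 did not pass (limma adjusted p = 0.389).

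Adam17, which also releases TNF from cells, spanned 37.7 to 79.0 FPKM over the Gr-1+ libraries and 22.8 to 65.9 FPKM over the Gr-1- libraries. Its highest library in each subset was CD19Cre and its lowest overall was floxed, as for Adam10. The log2 difference of 0.27 ± 0.32 did not pass (limma adjusted p = 0.645). Across the 9 libraries the 2 proteases had a Pearson r of 0.96 on log2(FPKM + 1), a description of values that share their library and depth.

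Rbpj, the DNA-binding protein of the pathway, was 1.76-fold higher in Gr-1+ monocytes. It stood at 12.8 and 16.5 FPKM in the null, 13.1 FPKM in the CEBPaCre and 11.9 FPKM in the CD19Cre library of Gr-1+. Among Gr-1- libraries it stood at 5.69 FPKM in the null, 9.77 FPKM in the CEBPaCre, 8.40 FPKM in the CD11cCre, 7.05 FPKM in the CD19Cre and 5.97 FPKM in the floxed library. No Gr-1- library reached a Gr-1+ library, and here the CD19Cre libraries lay close to the others. Mean FPKM was 13.6 ± 2.03 (SD, n = 4) over the Gr-1+ libraries and 7.38 ± 1.71 (n = 5) over the Gr-1- libraries, a log2 difference of 0.81 ± 0.20 (limma adjusted p = 0.0168). Without null Gr-1+ replicate 2 the adjusted p was 0.0544, and over all alternatives it lay between 0.0155 and 0.0544.

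Maml1, a coactivator that joins Rbpj on DNA, had the lowest mean of the 7 tested genes in Gr-1+ and the lowest but Notch1 in Gr-1-. It spanned 1.35 to 4.24 FPKM over the Gr-1+ libraries and 1.19 to 3.01 FPKM over the Gr-1- libraries, with the CD19Cre library lowest in both subsets. The log2 difference of 0.25 ± 0.27 did not pass (limma adjusted p = 0.615).

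Hes1, a repressor of transcription and the classic Notch target, had the largest difference of the 7 genes and was 5.65-fold higher in Gr-1- monocytes. It stood at 15.7 and 9.03 FPKM in the null, 14.1 FPKM in the CEBPaCre and 8.28 FPKM in the CD19Cre library of Gr-1+. Among Gr-1- libraries it stood at 42.2 FPKM in the null, 77.1 FPKM in the CEBPaCre, 94.5 FPKM in the CD11cCre, 58.9 FPKM in the CD19Cre and 85.2 FPKM in the floxed library. Every Gr-1- library was above every Gr-1+ library, and the null library was the lowest of Gr-1-. Mean FPKM was 11.8 ± 3.66 (SD, n = 4) over the Gr-1+ libraries and 71.6 ± 21.0 (n = 5) over the Gr-1- libraries. The log2 difference was -2.50 ± 0.28 (limma adjusted p = 1.5e-04), and its range under 16 alternatives was -2.67 to -2.21.

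Summed markers of NK cells, B cells, T cells and neutrophils did not overlap between the subsets. Those of dendritic cells, platelets and erythroid cells overlapped. The 8 NK cell markers summed to 1.24 to 4.02 FPKM across the Gr-1+ libraries and 22.7 to 424 FPKM across the Gr-1- libraries, 7 of the 8 without overlap, and Ncr1 was at 0 in all Gr-1+ libraries. Within Gr-1-, the null library was lowest and the CD11cCre library highest for Hes1 and for the NK, B cell and dendritic cell sums. The dendritic cell sum was 16.8 FPKM in the null and 73.6 FPKM in the CD11cCre library. The T cell, neutrophil, platelet and erythroid sums did not have both of these extremes. The 8 B cell markers used summed to 10.0 to 18.9 FPKM across the Gr-1+ libraries and 32.5 to 77.3 FPKM across the Gr-1- libraries, 4 of 8 without overlap, with Ebf1 at 0 in all Gr-1+ libraries. The 11 neutrophil markers in the files summed to 693 to 2323 FPKM across the Gr-1+ libraries and 28.5 to 104 FPKM across the Gr-1- libraries, 9 of them without overlap, and Camp was at 0 in all Gr-1- libraries. A marker sum is not a count of cells, and expression of these markers by the monocytes themselves was not separated. The 8 T cell markers summed to 1.37 to 3.20 FPKM for Gr-1+ and 3.92 to 18.6 FPKM for Gr-1-, 1 of 8 without overlap, with Cd4 at 0 in all Gr-1+ libraries. The part of other blood cells in the differences of Notch1, Rbpj and Hes1 was not tested.

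Set in order by mean FPKM, which is per transcript length, Gr-1+ monocytes ran Adam10, Adam17, Notch2, Rbpj, Hes1, Notch1, Maml1 and Notch4. Gr-1- monocytes ran Hes1, Adam17, Adam10, Notch2, Rbpj, Maml1, Notch1 and Notch4. In Gr-1+ the library ranges of neighbours overlapped except between Adam17 and Notch2 and between Maml1 and Notch4. In Gr-1- they overlapped except between Rbpj and Maml1 and between Notch1 and Notch4. Hes1 ranked 5 in Gr-1+ and 1 in Gr-1-, and Notch1 and Maml1 changed places.

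The wider pathway was read through lists of 72 further genes in the files, of which 50 were tested. Of these, 2 passed toward Gr-1+, 4 passed toward Gr-1- and 44 did not, beside 8.84% and 5.95% of all genes called in those directions. At an unadjusted limma p under 0.05 they were 12 of 50, beside 27% of all genes. With genotype as a block, which uses only genotypes with both subsets, the counts were 8 and 4, beside 16% and 9.97% of all genes (26% in all). The 6 added genes, all higher in Gr-1+, were Tle3, Numb, Tspan5, Aph1b, Poglut1 and Numbl. The median log2 difference of the 50 genes was 0.12, against 0.09 for all genes tested.

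**Figure D3:**
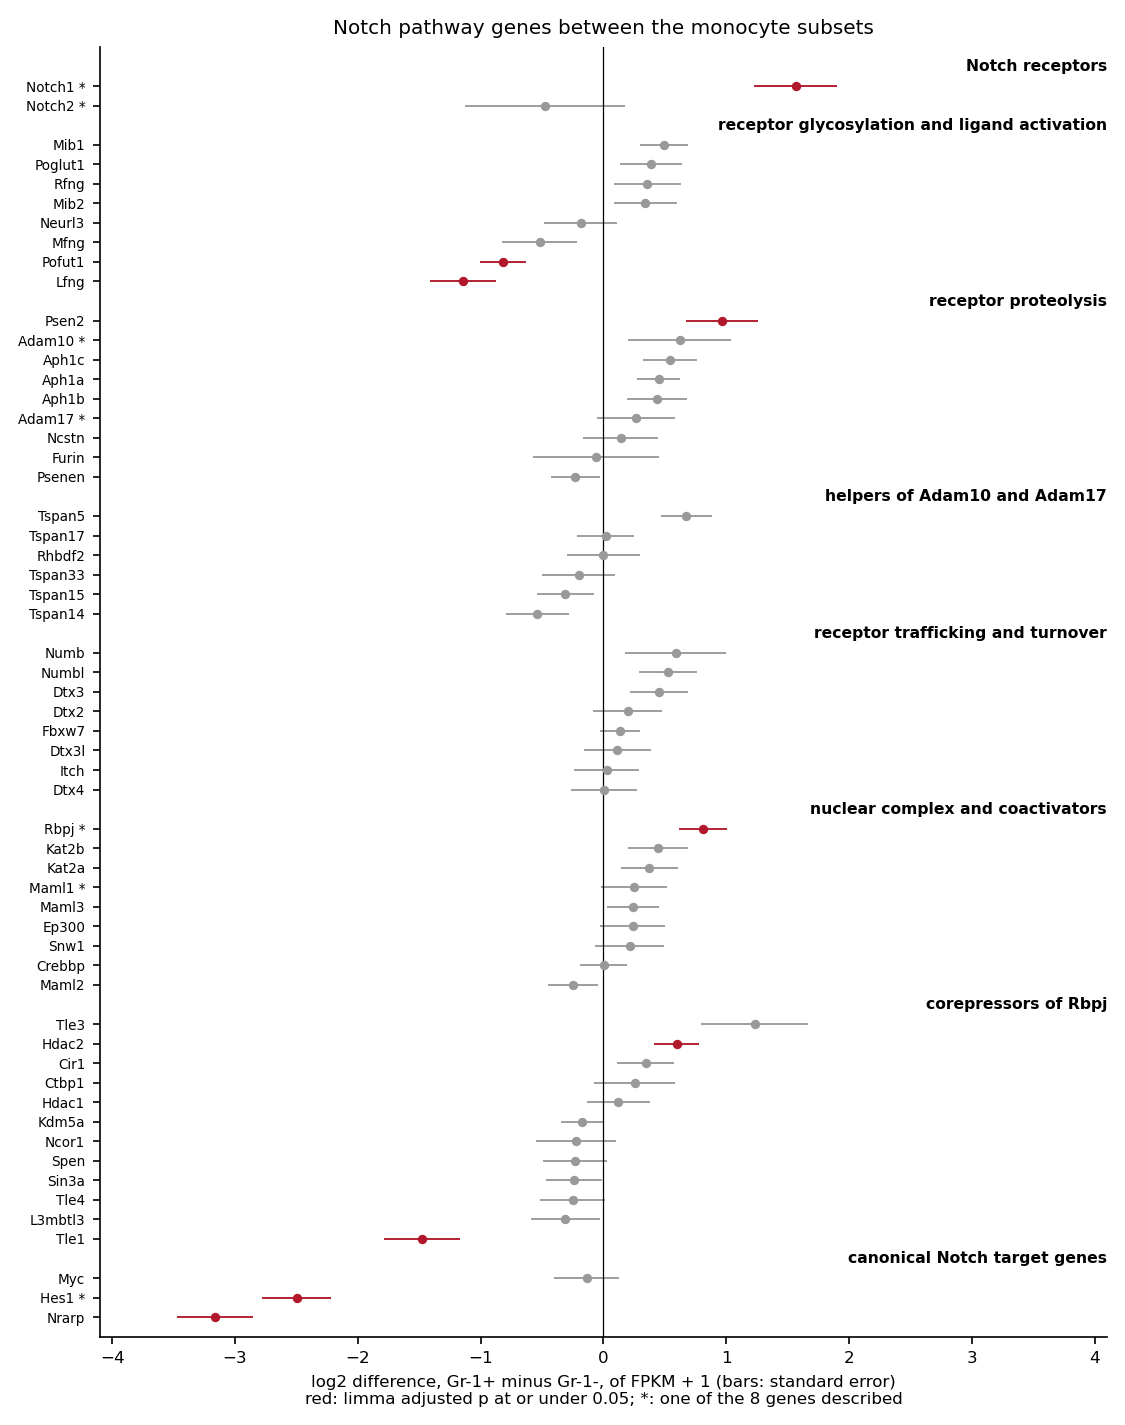
log2 difference of FPKM + 1, Gr-1+ minus Gr-1-, for the tested genes of the Notch lists, grouped by role. Points are estimates over 4 and 5 libraries, bars are standard errors, and red marks a limma adjusted p at or under 0.05. Nrarp (-3.16) and Hes1 (-2.50) lie farthest toward Gr-1- and Notch1 (1.56) farthest toward Gr-1+.

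Among target genes, Nrarp, a Notch-induced inhibitor of the receptor's intracellular part, went with Hes1. It held 1.11 and 0.565 FPKM in the null, 0.816 FPKM in the CEBPaCre and 0.817 FPKM in the CD19Cre library of Gr-1+. It held 6.83 FPKM in the null, 12.7 FPKM in the CEBPaCre, 23.7 FPKM in the CD11cCre, 20.9 FPKM in the CD19Cre and 18.8 FPKM in the floxed library of Gr-1-. Every Gr-1- library was above every Gr-1+ library, and the null library was again the lowest of Gr-1-. The log2 difference was -3.16 ± 0.31 (limma adjusted p = 5.9e-05), and Nrarp entered the test through its level in Gr-1-. Of the 10 target genes 3 were tested, and Myc, the third, did not pass (adjusted p = 0.795). Hey1, Hey2, Heyl and Hes5 stayed under 1 FPKM in every library. Ccnd1, also not tested, spanned 0.170 to 0.252 FPKM over the Gr-1+ libraries and 0.332 to 1.51 FPKM over the Gr-1- libraries, without overlap.

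None of the 6 ligand genes reached a mean of 1 FPKM. Jag1, a ligand, came closest and had no overlap between subsets, with 0.355 and 0.380 FPKM in the null, 0.154 FPKM in the CEBPaCre and 0.0244 FPKM in the CD19Cre library of Gr-1+. Among Gr-1- libraries it held 1.46 FPKM in the null, 2.44 FPKM in the CEBPaCre, 1.95 FPKM in the CD11cCre, 0.986 FPKM in the CD19Cre and 0.926 FPKM in the floxed library. Jag1 was higher in each Gr-1- library but was not tested. Dll1, Dll3, Dll4, Jag2 and Dlk1 were at 0 in 5 or more of the 9 libraries.

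Of 8 tested genes that add sugars to the receptor or activate ligands, 2 were higher in Gr-1-. Of all genes tested, 5.95% were called in that direction and 6.26% had no overlap in it. Lfng, the Lunatic fringe enzyme that extends O-fucose on Notch, held 60.2 and 64.0 FPKM in the null, 54.0 FPKM in the CEBPaCre and 25.2 FPKM in the CD19Cre library of Gr-1+. It held 94.0 to 122 FPKM in Gr-1- libraries, with a median of 110.4 FPKM, all above Gr-1+ (log2 difference -1.14 ± 0.27, limma adjusted p = 0.0158). Pofut1, which adds the O-fucose, had a mean of 2.96 ± 0.605 (SD, n = 4) over Gr-1+ and 5.98 ± 1.05 FPKM (n = 5) over Gr-1- libraries, also without overlap (limma adjusted p = 0.0124). Mfng and Rfng, the other fringe enzymes, did not pass (adjusted p = 0.317 and 0.448).

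**Figure D4:**
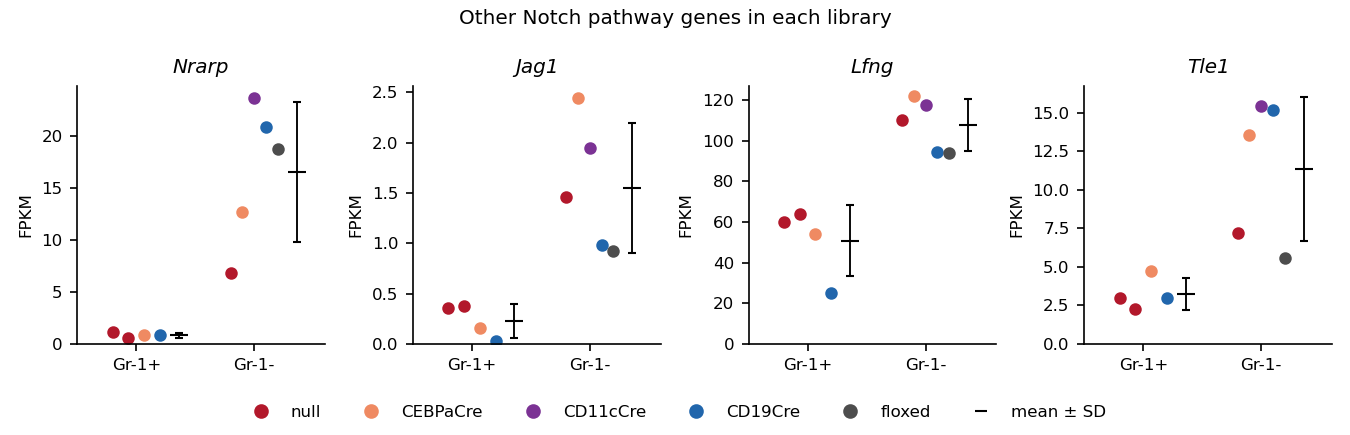
FPKM of Nrarp, Jag1, Lfng and Tle1 in each library, Gr-1+ left and Gr-1- right, on linear axes from 0. Points are libraries coloured by labelled genotype and bars are mean ± SD (n = 4 and n = 5). All 4 genes are higher in each Gr-1- library than in any Gr-1+ library, a pattern seen in 6.26% of all genes tested. Jag1 was chosen after its values were seen and was not tested, and Nrarp entered the test through its level in Gr-1-.

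Of 9 genes of receptor proteolysis, Psen2, a catalytic subunit of gamma-secretase, was higher in Gr-1+, a direction called for 8.84% of all genes. It had a mean of 28.3 ± 13.9 (SD, n = 4) over Gr-1+ and 12.98 ± 2.40 FPKM (n = 5) over Gr-1- libraries, with overlap. Its limma adjusted p was 0.0486 and rose to 0.116 without null Gr-1+ replicate 1, and the call was also lost without any of the other libraries except null Gr-1+ replicate 2 and CD19Cre Gr-1-. Ncstn, another gamma-secretase subunit, did not pass (adjusted p = 0.814). None of the 6 tested helpers of Adam10 and Adam17 passed, nor any of 8 genes of receptor trafficking and turnover.

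Of 12 tested corepressors, which Rbpj binds when no receptor fragment is present, 1 was called in each direction, a share near that of all genes. Tle1, a Groucho-type corepressor, held 2.97 and 2.27 FPKM in the null, 4.74 FPKM in the CEBPaCre and 2.96 FPKM in the CD19Cre library of Gr-1+, and 5.54 to 15.4 FPKM (median 13.6) in Gr-1-. It was 2.79-fold higher in Gr-1- with no overlap (limma adjusted p = 0.00793). Hdac2, a histone deacetylase, was 1.51-fold higher in Gr-1+ (limma adjusted p = 0.0486, up to 0.133 without the CEBPaCre Gr-1+ library), and that call was lost without any of the other libraries but CD19Cre Gr-1-. Tle3 had a mean of 17.1 ± 8.26 (SD, n = 4) over Gr-1+ and 6.18 ± 2.67 FPKM (n = 5) over Gr-1- libraries and did not pass (adjusted p = 0.0886, and 0.00958 with genotype as a block). The other 9 of 12 did not pass either.

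Promoter sequence is shown for Rbpj and Lfng because both differed between the subsets and hold the core letters that Rbpj is known to bind. Windows from RefSeq on GRCm38.p6 cover 300 bases, 250 before and 50 after each gene start, and 7 of the 8 genes have one. Hes1 has none in the table. TGGGAA was searched on both strands and was found in the windows of Rbpj alone among the 7 genes, in both of its windows. It was also found in that of Lfng and not in that of Nrarp. It occurs in 25.6% of all 32851 windows, and the longer GTGGGAA, which contains it, was found in that of Lfng alone among these 9 and occurs in 6.38% of all windows. The lines give the 250 bases before the start, 5′ to 3′ on the plus strand, with TGGGAA or its reverse complement in capitals, for Rbpj at chr5:53590096-53590345 and Lfng at chr5:140607091-140607340.
Rbpj: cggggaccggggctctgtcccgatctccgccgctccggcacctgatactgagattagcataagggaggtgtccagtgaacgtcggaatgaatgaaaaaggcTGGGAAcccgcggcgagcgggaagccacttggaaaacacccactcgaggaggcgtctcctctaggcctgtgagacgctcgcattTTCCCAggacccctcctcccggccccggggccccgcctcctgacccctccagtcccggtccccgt
Lfng: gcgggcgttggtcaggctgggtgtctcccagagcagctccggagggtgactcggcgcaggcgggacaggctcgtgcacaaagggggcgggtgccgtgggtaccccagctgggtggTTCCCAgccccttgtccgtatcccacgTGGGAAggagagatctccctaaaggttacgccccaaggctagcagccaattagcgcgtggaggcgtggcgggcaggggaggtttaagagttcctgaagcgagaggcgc
The matches begin 149 and 65 bases before the start in Rbpj, and 135 and 108 bases before it in Lfng. They describe these letters only, and no binding was measured.

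By genotype, the 5 null and CEBPaCre libraries, whose labels take Fcgr2 from myeloid cells, are called deleted, and the 3 CD19Cre and floxed libraries intact. These names follow the labels only, since Fcgr2b spanned 83.0 to 200.7 FPKM in deleted and 74.9 to 195 FPKM in intact libraries. The CD11cCre library entered neither group, since CD11c is found on some monocytes and not on others. Notch2 was the one gene of the 7 whose groups did not overlap. It was chosen with this contrast in view, so that lack of overlap is a description and tests nothing. The pattern was seen in 5.48% of the 10429 genes tested (4.34% higher in deleted, 1.14% higher in intact). Notch2 ranged from 20.3 to 45.6 FPKM (median 28.8) in the deleted libraries. It stood at 2.61 and 8.45 FPKM in the CD19Cre and 14.3 FPKM in the floxed library. The means were 30.3 ± 9.44 FPKM (SD, n = 5) in deleted and 8.45 ± 5.84 FPKM (n = 3) in intact libraries. At equal subset the log2 difference, deleted minus intact, was 2.14, a 4.41-fold difference of FPKM + 1. The CD11cCre library, in neither group, held 33.0 FPKM.

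Much of that difference lay in the CD19Cre libraries. In Gr-1+ the intact group was the CD19Cre library alone, and the log2 difference was 2.91, against 1.56 in Gr-1-. With both CD19Cre libraries left out, the floxed library was the only intact one and the log2 difference was 1.22. The floxed library remained below all 3 other Gr-1- libraries that were not CD19Cre, at 14.3 FPKM against 26.1 to 45.6 FPKM. That library also ran low in general. Its median log2 difference from the others of its subset was -0.35 over 8905 genes, and the part of this in Notch2 was not tested.

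Of the other 6 genes, 0 passed in this comparison, as did 0 of all 10429 genes tested (0%) by limma, while 1470 genes (14.1%) had an unadjusted p under 0.05, Notch1 and Maml1 among them. Notch1 averaged 5.23 ± 3.44 FPKM (SD, n = 5) in deleted and 1.25 ± 0.799 FPKM (n = 3) in intact libraries (log2 difference 0.93 ± 0.27, limma adjusted p = 0.306). Maml1 averaged 3.34 ± 0.662 FPKM in deleted and 1.80 ± 0.913 FPKM in intact libraries (adjusted p = 0.313). Rbpj and Hes1 had log2 differences of 0.20 and 0.06, and Adam10 and Adam17 of -0.40 and -0.35 (adjusted p from 0.648 to 0.931). Without the floxed library, the intact group was the CD19Cre pair alone and 2551 genes were called. Among them were Notch1 and Maml1, higher in deleted (adjusted p = 0.0104 and 0.0146), and Adam10 and Adam17, higher in intact (0.0178 and 0.0231). Without the CD19Cre libraries the log2 difference of Notch1 was 0.15 (adjusted p = 0.854), and those of Adam10 and Adam17 turned to 1.30 and 0.80. Of the 50 other pathway genes, 0 passed, with 11 at an unadjusted p under 0.05.

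The difference by deletion was also compared between subsets, as an interaction. It was called for 9 of 10429 genes by limma (0.0863%), and for none of the 6 genes tested, with the lowest adjusted p among them 0.882. None of the 6 had an unadjusted p under 0.05, beside 3.25% of all genes. The Gr-1+ side of this test has 1 intact library.

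**Figure D5:**
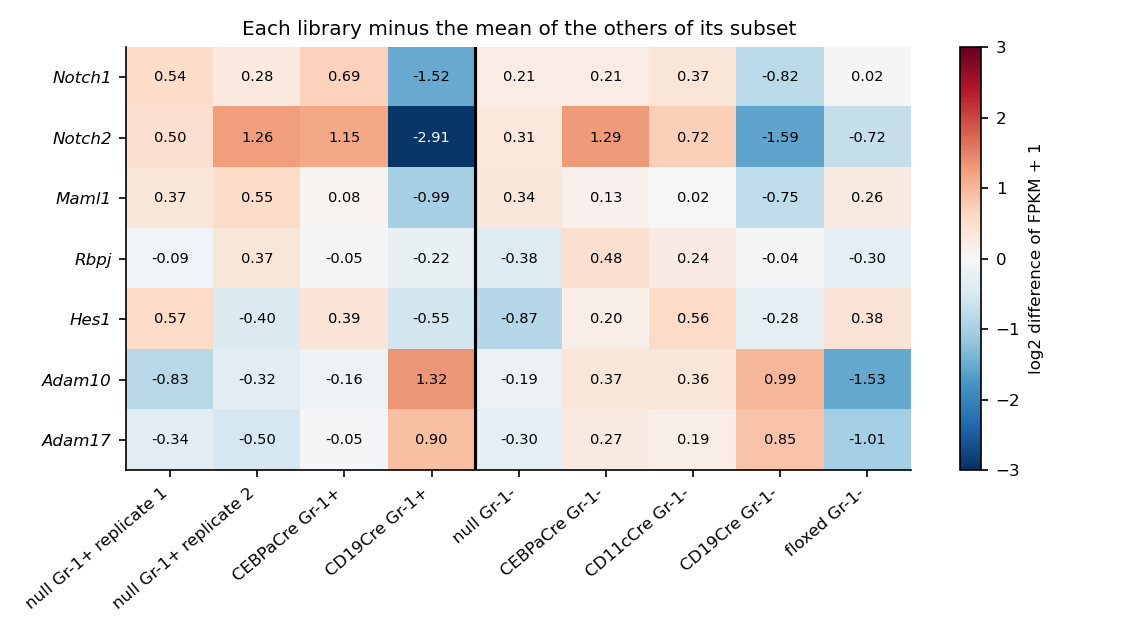
log2(FPKM + 1) of each library minus the mean of the other libraries of its subset, for the 7 tested genes, with Gr-1+ libraries left of the line and Gr-1- libraries right. Red is above and blue below the other libraries, with the value in each cell. The CD19Cre columns run from -2.91 for Notch2 to 1.32 for Adam10 in Gr-1+ and from -1.59 to 0.99 for the same genes in Gr-1-.

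The 2 CD19Cre libraries deviated in the same direction as each other for all 7 tested genes. Against the mean of the other libraries of its subset, the CD19Cre Gr-1+ library was lower by log2 differences of -2.91 for Notch2, -1.52 for Notch1 and -0.99 for Maml1, and higher by 1.32 for Adam10 and 0.90 for Adam17. The CD19Cre Gr-1- library had log2 differences of -1.59 for Notch2, -0.82 for Notch1, -0.75 for Maml1, 0.99 for Adam10 and 0.85 for Adam17. For Hes1 the values were -0.55 in Gr-1+ and -0.28 in Gr-1-, and for Rbpj -0.22 and -0.04. With 1 library per subset these are values without a test.

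Transcript length and base content were set beside these values. The longest coding transcripts of Notch1, Notch2 and Maml1 have 9488, 10500 and 5528 nt with 57.1%, 53.6% and 55.7% GC, while those of Adam10 and Adam17 have 4593 and 4469 nt with 42.1% and 45.1% GC. For 281 genes with over 4492 nt and over 54.7% GC, which hold Notch1 and Maml1 but not Notch2, the median log2 difference of the CD19Cre library from the others of its subset was -0.61 in Gr-1+ and -0.03 in Gr-1-. For all 8905 genes with a matched transcript it was 0.16 and 0.25. For 830 genes of that length with under 45.2% GC, which hold Adam10 and Rbpj, it was 0.18 and 0.09, close to the value of all genes in Gr-1+ and below it in Gr-1-. For 838 genes of under 1916 nt with over 54.7% GC, which hold none of the 7, it was 0.27 and 0.38. In the floxed library the median was -0.48 for the long GC-rich, -0.45 for the long GC-poor and -0.16 for the short GC-rich genes. It was -0.04 there for 302 short GC-poor genes and -0.35 for all 8905 genes. Notch2 lies just under the upper GC limit and Adam17 just under the upper length limit, so neither falls in a class. The part of length and GC content in the genotype values of the 7 genes was not tested.

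Between the 2 labels that remove Fcgr2 in myeloid cells, CEBPaCre and null, Notch2 held 28.8 FPKM against 20.3 and 30.6 FPKM in Gr-1+, and 45.6 FPKM against 26.1 FPKM in Gr-1-. Hes1 held 14.1 FPKM in CEBPaCre against 15.7 and 9.03 FPKM in null Gr-1+ libraries, and 77.1 FPKM against 42.2 FPKM in Gr-1-. In Gr-1+ the CEBPaCre value lay between the 2 null values for both genes. The Gr-1- differences rest on 1 library each.

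The genes most like each of the 7 were found by Pearson r of log2(FPKM + 1) over the 9 libraries, among 6625 or 6626 other genes whose mean was 5 FPKM or more. The r values describe 9 libraries that share depth and quality patterns. Of those most like Notch2, Cnot6l (0.974), Wasf2 (0.969), Agpat1 (0.967) and Tnrc18 (0.965) are named. For Hes1 they were Secisbp2 (0.99), Dusp5 (0.98) and Ccdc88b (0.98), and for Notch1 Zfp385a (0.98), Ifi30 (0.98) and Krtcap2 (0.97). Rbpj was most like Dyrk3, Mtx2 and Usp12 (0.93 each), and Maml1 most like Ppp1r9b, Gatad1 and Lars2 (0.97 each). Adam10 was most like Efr3a (0.99), Yipf6 (0.98) and Nrd1 (0.98), and Adam17 most like Ascc2 (0.996) and Bzw1 (0.99), with a symbol that the files give as a date between them.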

How the data were processed

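RNA was measured in 9 libraries of sorted blood monocytes. The deposited values are FPKM per gene symbol, made by the authors for each library. TopHat2 2.0.8, Cufflinks 2.1.1 and the mm9 build are named, per the submitters' processing notes, while annotation and settings are not given in the sources used here. Every value column was used. No counts are given, so no counting interval or floor is printed, and relative depth was read from the most frequent ratio between low values. An exact 0 can be a failed estimate.

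From the deposited values, log2(FPKM + 1) was modelled in R 4.3.3 by limma 3.58.1, with lmFit and a trended eBayes. Genes entered if their 9-library mean reached 1 FPKM and 2 or more of the fitted libraries were above 0. Such a scale understates changes of low genes. Benjamini-Hochberg adjustment ran over all genes tested, with calls at 0.05 or less. The subset fit had no covariate, and the deletion fit had the subset as covariate. The scripts were tested on simulated data. Tables were handled in Python 3.11.15.

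The 8 genes and the lists were chosen with earlier results of these data known. Besides the 8, list genes called in either comparison and the genes most like each member were named by rule. Jag1, Ccnd1 and the receptor ratio were chosen after their values were seen. Of the list genes, Kyat1 is not in the files under that symbol, and a few genes are not reported here and were left out of the lists. Length and GC came from the longest coding GENCODE transcript on GRCm38, matched for 85.3% of the genes tested.

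Across genes, deviations of same-genotype libraries from subset means had r of 0.56 for CD19Cre, 0.15 for CEBPaCre and 0.22 and 0.13 for null. Pairs of different genotype ran from -0.34 to 0.21, the highest being null Gr-1+ replicate 2 with floxed, so only the CD19Cre pair stood clear of them. The labels do not say that they share an animal. Genotype as a block was therefore an alternative, beside another pseudocount, other filters, 2 scalings and leaving out libraries.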

Additional observations from a re-analysis of the deposited data

How the results depend on the processing

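The calls of Notch1, Rbpj and Hes1 and the lack of a call for Notch2, Maml1, Adam10 and Adam17 between subsets held under every alternative run (a pseudocount of 0.1, no filter or a 5 FPKM filter, 2 scalings, genotype as replicate block, and libraries left out), except for Rbpj without null Gr-1+ replicate 2. With single libraries left out, the log2 difference of Rbpj ran from 0.72 to 0.91 and that of Notch2 from -0.80 to 0.25, and the count of called genes from 1128 to 1578. With the replicate block, 2712 genes were called, 1483 of them shared with the 1544 of the unblocked fit. The block changed no call of the 7 genes. Notch1 and Maml1 have no value under the 5 FPKM filter.

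In the deletion comparison, leaving out both CD19Cre libraries gave 5 called genes and log2 differences of 1.22 for Notch2, 0.15 for Notch1, -0.57 for Hes1, -0.022 for Maml1, 1.30 for Adam10 and 0.80 for Adam17. With single libraries left out, the count ran from 0 to 2551, and the log2 difference from 1.56 to 2.46 for Notch2, 0.49 to 1.19 for Notch1, 0.38 to 0.90 for Maml1, -0.31 to 0.35 for Hes1, -1.03 to 0.29 for Adam10 and -0.80 to 0.053 for Adam17. The cause was not tested. The interaction gave 5 genes under each of the 2 scalings and 7 to 18 with single libraries left out, alternatives added after the data were seen. It could not be fitted without the CD19Cre Gr-1+ library. No read counts are given, so what depth limits for Notch4, Notch3 and the ligands is not known.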
